A study of Sus scrofa with 15 samples.

Results

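This account describes RNA levels in pig oocytes before and after culture for maturation. It covers the enzymes that take glucose to pyruvate and lactate, and the pentose phosphate branch. It also covers the tricarboxylic acid (TCA) cycle with the enzymes that feed and drain it. The members were chosen by symbol, as a list of 54 genes of which 19 belong to glycolysis with glucose uptake and lactate dehydrogenase, 6 to the pentose phosphate pathway and 29 to the TCA group, out of 22516 genes in the gene table. An identifier was found for 52 of them, and *SLC2A3* and *RPE* were not analysed here. *ENO2* was listed at 0 in all 8 columns of the gene table that could be used, *PFKL*, *PGAM1* and *PC* were below the filter on low counts, and the other 48 members were tested among 13224 genes.

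PolyA RNA of *Sus scrofa* oocytes was sequenced in 15 libraries, each made from a pool of oocytes, with 5 libraries for each of 3 groups. GV oocytes, at the germinal vesicle stage in which meiosis is still arrested, came uncultured from the follicles of fresh sow ovaries and had no polar body. MII oocytes came from cumulus oocyte complexes matured *in vitro* for 44 h and showed a polar body under the stereomicroscope. ‘Damaged’ oocytes went through the same 44 h of culture without one, so the absence of a polar body is all that defines that group. Neither a strain nor an age is given for any group, and all oocytes were stripped of cumulus cells with hyaluronidase. As in the study, MII and ‘damaged’ oocytes together form the MIX group. All MIX oocytes and no GV oocytes went through the culture, so maturation and time in culture cannot be told apart.

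Glycolysis splits glucose into pyruvate in a preparatory phase that spends ATP and a payoff phase that returns it, while the pentose phosphate pathway leads glucose off to make NADPH and ribose. The pyruvate dehydrogenase complex turns pyruvate into acetyl-CoA for the TCA cycle in the mitochondrion, and is switched off by its kinases and on by its phosphatases. Mammalian oocytes are known to use little glucose themselves and to take up pyruvate supplied by the cumulus cells around them.

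Estimated counts summed to between 6.4 and 23.6 M per library. The shallowest library, GV replicate 3 with 6.4 M, was left out of the main fits, which left 4 GV, 5 MII and 5 ‘damaged’ libraries. Levels of one gene are given as CPM, estimated counts on a common total per library, after scaling by TMM factors, which centre most genes between libraries. Levels of different genes are compared as CPM per kb of transcript. TMM factors lay between 1.35 and 1.73 in GV and between 0.794 and 0.922 in MIX, so over the 13224 genes a scaling on library sizes alone moved the median change from -0.16 to -1.05 on the log2 scale. A fold change below is therefore relative to the other genes. From such pools, less of a transcript cannot be told apart from less RNA per oocyte, nor the loss of a transcript from the loss of its poly(A) tail. Of 16 oocyte markers 14 could be placed, and their summed level was 10248 to 15369 CPM over the 14 libraries. Of 22 cumulus and granulosa markers 16 could be placed. They summed to 50.4 to 58.8 CPM in GV, 32.2 to 46.8 in MII and 31.2 to 47 in ‘damaged’ libraries. In each of the 3 groups, 10 of the 16 had a mean under 1 CPM, and AMH was at 0 in every MII library. The part of cumulus RNA in the results below was not tested.

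In MIX oocytes, 22 of the 48 members were lower and 13 higher than in GV oocytes at an FDR under 0.01, and 13 did not pass. Among all genes tested, 37.2% were lower and 30.3% higher by the same rule, against 45.8% and 27.1% of the members. On library sizes 32 were lower and 7 higher, beside 60.5% and 12.1% of all genes, and *HK1*, *ALDOA*, *PKM*, *PDHB*, *SUCLA2*, *FH*, *HK2*, *PDK1*, *ACO1* and *ME1* were then called lower. With GV replicate 3 included, 22 were lower and 12 higher. A differentially expressed gene (DEG) also had to move by more than 2 on the log2 scale, in either direction. By this rule 14 members were lower and 3 higher (*LDHB*, *PDK3* and *SUCLG2*), and with GV replicate 3 included *PGK1* (2.06) and *DLD* (2.02) joined the latter for 5. The DEGs among all genes were 16.7% lower and 4.27% higher. The median log2 fold change of the members was -0.49, beside -0.16 for all genes. In 22 members all 10 MIX libraries lay below all 4 GV libraries, and in 11 all lay above, for which the background was 29.4% and 24.3% of all genes.

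The pathways differed in their makeup. In glycolysis 9 of 15 tested members fell and 2 rose, with a median of -1.04. In the pentose phosphate pathway 3 of 5 fell and 1 rose, with a median of -2.66. In the TCA group 10 of 28 fell and 10 rose, with a median of 0.17 that lay between changes of -4.77 and 2.39. The TCA shares, 35.7% lower and 35.7% higher, were near the 37.2% and 30.3% of all genes tested. In glycolysis 60% were lower and 13.3% higher, and in the pentose phosphate pathway 60% and 20%, but of only 15 and 5 genes. On library sizes the TCA median was -0.73 and its calls became 16 lower and 6 higher, where 60.5% and 12.1% of all genes were called.

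**Figure D1:**
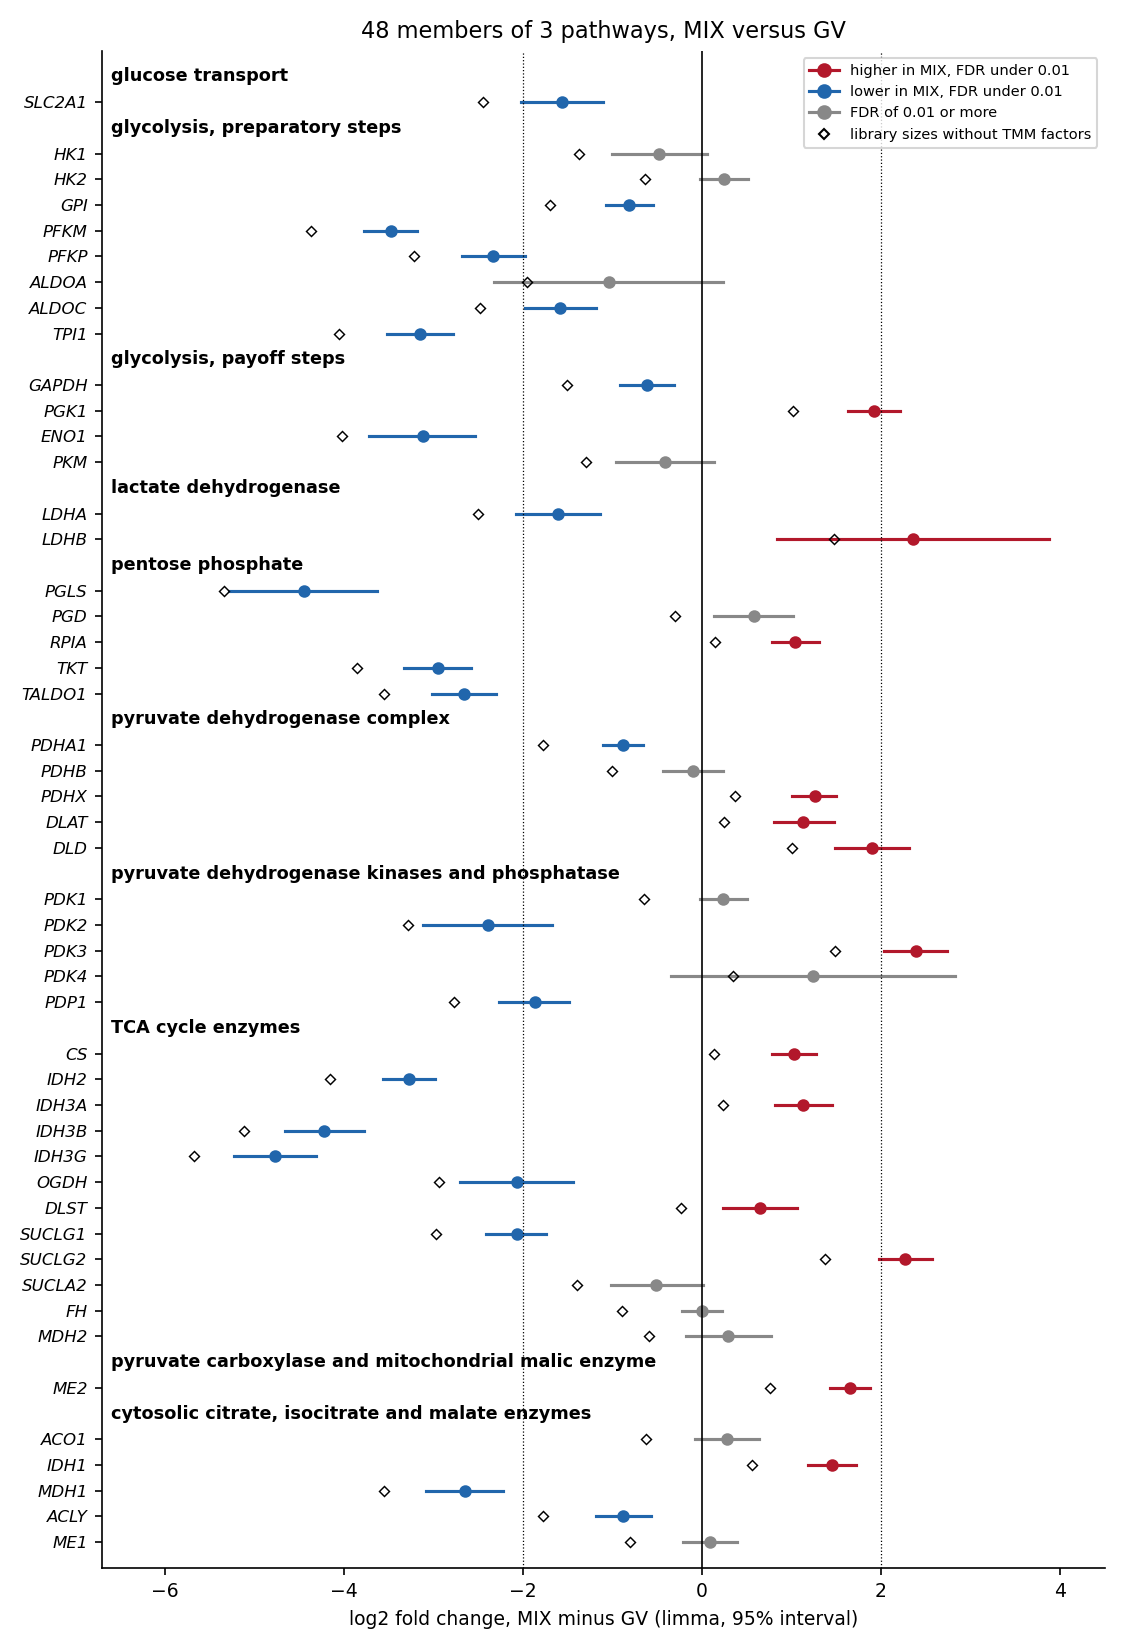
Log2 fold change of the 48 tested members between MIX (10 libraries) and GV oocytes (4 libraries), grouped by role. Points are limma estimates after TMM scaling, bars their 95% intervals, colours the call at an FDR of 0.01, dotted lines the limits of 2, and open diamonds the estimate on library sizes. *IDH3G* at -4.77 and *PDK3* at 2.39 mark the ends, and every diamond lies to the left of its point.

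Summed over members on the per-kb scale, the 3 pathways went different ways under TMM scaling. Glycolysis summed to 283 ± 46.3 CPM per kb in GV (SD, n = 4), 142 ± 10.3 in MII (SD, n = 5) and 127 ± 15.2 in ‘damaged’ oocytes (SD, n = 5). Every GV library (232 or more) lay above every MII and ‘damaged’ library (153 or less). The TCA group summed to 818 ± 109, 1516 ± 44.4 and 1449 ± 122 CPM per kb, with all GV libraries (956 or less) below the others (1337 or more). On library sizes, a scaling of these sums added after the data were seen, the TCA sums overlapped, at 1222 to 1307 in GV, 1203 to 1305 in MII and 1141 to 1385 in ‘damaged’ libraries, while glycolysis was again highest in GV (374 to 530 beside 89.9 to 126). The pentose phosphate sums of 173 ± 26.6, 213 ± 36.3 and 239 ± 42 CPM per kb overlapped between the groups. On library sizes they overlapped too, at 197 to 363 in GV, 144 to 223 in MII and 157 to 258 in ‘damaged’ libraries. The highest mean was then that of GV (274 beside 177 and 204).

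Single genes held large shares of these sums. *ME2* alone held 26.6% of the TCA sum in GV and 45.9% in MIX, and without it the GV libraries (526 to 692 CPM per kb) were below the others (737 to 915) under TMM scaling. On library sizes that order was turned, with 911 to 955 CPM per kb in GV, 605 to 703 in MII and 629 to 768 in ‘damaged’ libraries. *RPIA* held 52.6% of the pentose phosphate sum in GV and 83.9% in MIX. Without *RPIA* the order of the means turned under TMM scaling. The other 4 genes then summed to 82.1 ± 19.1 CPM per kb in GV, 35.9 ± 9.55 in MII and 37.1 ± 9.17 in ‘damaged’ oocytes. GV did not overlap with the others. On library sizes the mean was highest in GV with *RPIA*, and without it all GV libraries (86 to 189) lay above the others (21.4 to 42.1). The leading glycolysis member was *LDHA* in GV (33.7% of the sum) and *PGK1* in MIX (25.6%). Without *LDHA*, GV libraries (156 to 216 CPM per kb) still lay above MII (95.9 to 121) and ‘damaged’ libraries (88.1 to 109) under TMM scaling.

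**Figure D2:**
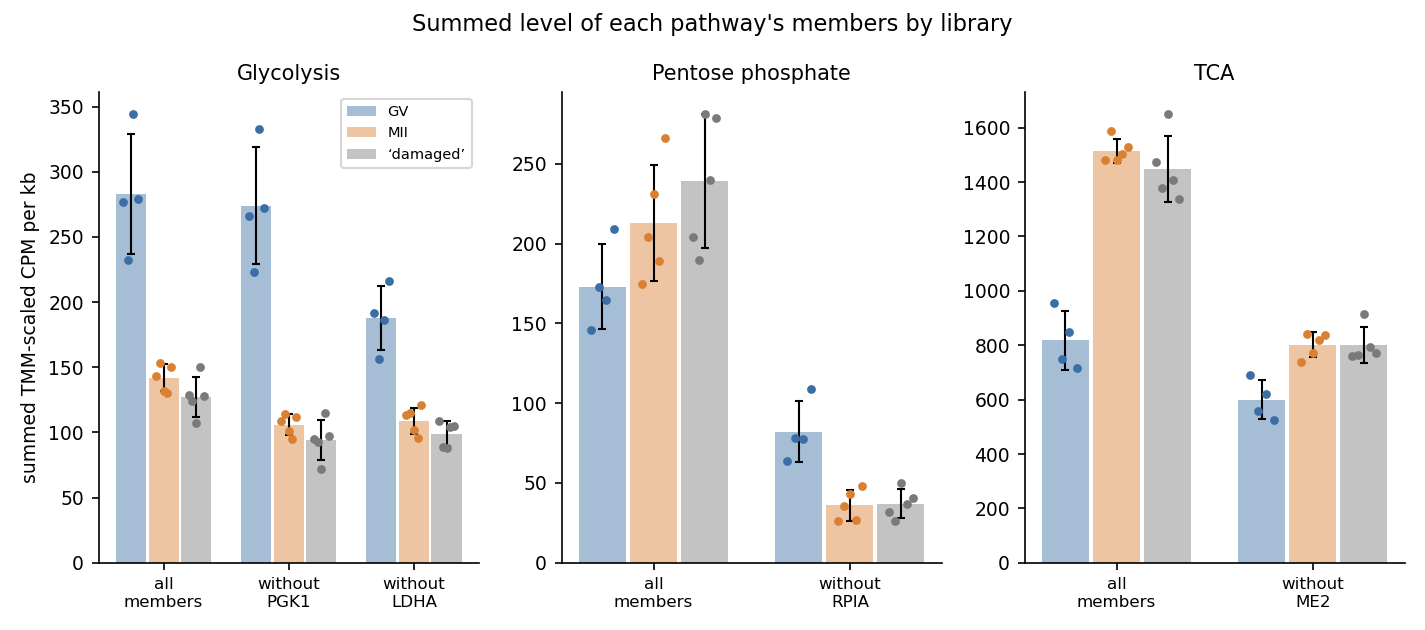
Summed level (TMM-scaled CPM per kb) of the members of each pathway in GV, MII and ‘damaged’ oocytes, for all members and without the gene that leads the sum in MIX or in GV. Bars are means, error bars SD, points libraries (4 GV, 5 MII, 5 ‘damaged’). Glycolysis is highest in GV. The pentose phosphate sum changes the order of its means once *RPIA* is left out, under this scaling only. On library sizes its mean is highest in GV with and without *RPIA*. The TCA group is lowest in GV under this scaling only, since on library sizes its sums overlap and, without *ME2*, are highest in GV.

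Glucose enters through facilitative transporters, of which *SLC2A1* encodes GLUT1. *SLC2A1* measured 2.14, 2.75, 2.4 and 3.11 CPM in the GV libraries, 0.655, 0.751, 0.609, 0.734 and 0.675 CPM in MII and 1.43, 0.976, 1.08, 0.76 and 1.13 CPM in ‘damaged’ libraries. All MII and ‘damaged’ libraries were lower than the GV libraries, but the level was low throughout, and *SLC2A1* fell by 1.56 on the log2 scale (SE 0.22, FDR 1.74e-06).

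The preparatory steps of glycolysis held no member that rose. *ALDOC* measured 84, 41.6, 75.8 and 84.3 CPM in the GV libraries, 17.8, 23.6, 22, 17.3 and 36.5 CPM in MII and 28.7, 17.5, 21.7, 24.7 and 25.5 CPM in ‘damaged’ libraries. Chromosome 12 from base 44823376 to 44827273 (RefSeq, Sscrofa11.1) carries the aldolase with the highest level among these genes, *ALDOC* fell by 1.58 on the log2 scale (SE 0.191, FDR 2.04e-07), and every MIX library was below the lowest GV library. *PFKM* measured 25.6, 29.8, 27 and 28.9 CPM in the GV libraries, 2.29, 3.29, 2.7, 2.57 and 2.58 CPM in MII and 2.06, 1.91, 2.01, 2.49 and 3.06 CPM in ‘damaged’ libraries. The muscle type phosphofructokinase, at the committed step of the pathway, thus had GV values far above all others, and *PFKM* fell by 3.47 on the log2 scale (SE 0.142, FDR 3.09e-14). Chromosome 5 from base 78475473 to 78525052 (RefSeq, Sscrofa11.1) holds this gene. *PFKP* measured 39.2, 38.1, 43 and 64.4 CPM in the GV libraries, 9.18, 9.67, 10.9, 6.21 and 8.55 CPM in MII and 8.47, 6.33, 9.85, 11.4 and 11.4 CPM in ‘damaged’ libraries. The platelet type phosphofructokinase was higher than *PFKM* per kb in each library, with a *PFKP* to *PFKM* ratio of 2.32 to 4.04 in GV and 4.38 to 8.9 in MIX. *PFKP* fell by 2.33 on the log2 scale (SE 0.169, FDR 9.26e-11). The third phosphofructokinase, *PFKL*, had at most 8.86 estimated counts in any library and was not tested.

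*HK2* measured 14.2, 12.1, 12.9 and 12.7 CPM in the GV libraries, 17, 14.3, 11.8, 16.7 and 15.4 CPM in MII and 17.8, 17.3, 15.3, 14.1 and 15.4 CPM in ‘damaged’ libraries. Hexokinase 2, which traps glucose as glucose 6-phosphate, did not pass, with overlapping libraries and a log2 fold change of 0.25 (SE 0.129, FDR 0.0822), and on library sizes its sign turned to -0.64. *HK1* was rarer, with 1.22 ± 0.261 CPM in GV (SD, n = 4). *ALDOA* measured 0.899, 0.683, 1.35 and 1.11 CPM in the GV libraries, 1.39, 0.35, 3.41, 0.0459 and 1.09 CPM in MII and 0.408, 0.204, 0.0814, 0.515 and 1.53 CPM in ‘damaged’ libraries. *ALDOA* spread so widely within MII and within ‘damaged’ libraries that the groups overlapped (log2 fold change -1.04, SE 0.615, FDR 0.132). Among the others, the isomerases *TPI1* (log2 fold change -3.15, SE 0.179, FDR 2.39e-12) and *GPI* (-0.81, SE 0.123, FDR 4.69e-06) fell.

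Of the 4 payoff members tested, *GAPDH* and *ENO1* fell, *PGK1* rose and *PKM* did not pass. *GAPDH* measured 39.3, 40.6, 36.2 and 44.5 CPM in the GV libraries, 33, 30.4, 22.9, 23.8 and 35.1 CPM in MII and 29.3, 22.3, 18.2, 25.8 and 26.1 CPM in ‘damaged’ libraries. Every MIX library lay below the GV libraries, yet the change of this common reference gene was small, at a log2 fold change of -0.61 (SE 0.145, FDR 0.000677). It did not pass when the fit was limited to the 8 libraries whose names agreed between the files (-0.66, FDR 0.013). *PGK1* measured 18.2, 14.3, 19.2 and 11 CPM in the GV libraries, 58.2, 66.9, 52.6, 59 and 63.4 CPM in MII and 57.2, 53.4, 59, 58.9 and 51.3 CPM in ‘damaged’ libraries. Phosphoglycerate kinase, which makes ATP from the product of *GAPDH*, was higher in all MIX libraries and rose by 1.92 on the log2 scale (SE 0.139, FDR 8.74e-11). Chromosome X from base 62187472 to 62210321 (RefSeq, Sscrofa11.1) holds *PGK1*, and on library sizes the rise was 1.02 (FDR 1.96e-07). *ENO1* measured 45.9, 43.9, 55 and 68.3 CPM in the GV libraries, 16.5, 5.24, 10.9, 4.52 and 4.78 CPM in MII and 3.75, 3.42, 3.01, 7.04 and 13.1 CPM in ‘damaged’ libraries. The enolase *ENO1* was the largest fall here, at a log2 fold change of -3.12 (SE 0.287, FDR 3.37e-09), with MII and ‘damaged’ libraries that varied several-fold among themselves and stayed below GV. Pyruvate kinase *PKM* was low, with 4.27 ± 0.789 CPM in GV (SD, n = 4) and a log2 fold change of -0.41 (SE 0.265, FDR 0.167).

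Both lactate dehydrogenase subunits on the member list, *LDHA* and *LDHB*, were tested, and they moved in opposite directions. A further subunit gene, the testis type *LDHC*, was not a member and fell too, as described below. Its mean was 262 CPM per kb in GV and 68.8 in MIX oocytes, above *LDHA* at 95.5 and 30.4. Per kb, the *LDHA* to *LDHC* ratio within a library was 0.244 to 0.511 in GV and 0.122 to 1.02 in MIX. *LDHA* measured 132, 116, 244 and 97.1 CPM in the GV libraries, 46.4, 59.5, 46.9, 52.7 and 44.9 CPM in MII and 29.6, 54.5, 29.1, 71 and 34.5 CPM in ‘damaged’ libraries. The GV values of *LDHA*, spread by 1 high library, were all above the MIX values, at a log2 fold change of -1.61 (SE 0.224, FDR 1.45e-06). *LDHB* measured 1.5, 1.35, 0.192 and 1.16 CPM in the GV libraries, 6.24, 8.39, 2.73, 7.97 and 2.96 CPM in MII and 7.75, 7.25, 0.513, 4.98 and 5.46 CPM in ‘damaged’ libraries. *LDHB* was rare, its ‘damaged’ replicate 3 lay within the GV range, and the rise of 2.36 on the log2 scale (SE 0.729, FDR 0.00618) had the highest FDR of the 3 DEGs that rose. It failed the FDR of 0.01 without any 1 of the 4 GV libraries, with 1.71 to 2.64 (FDR 0.0111 to 0.0322), on library sizes (1.47, FDR 0.0717) and with the 8 agreeing libraries (2.63, FDR 0.0474). Per kb, the *LDHA* to *LDHB* ratio within a library was 58.9 to 890 in GV, 4.64 to 12.1 in MII and 2.67 to 39.8 in ‘damaged’ oocytes. Short reads that fit similar transcripts of different genes can be split among them by Kallisto. This may make *GAPDH*, *PGK1*, *ENO1*, *LDHA* and *LDHB* less certain, but it was not tested for these or for other members.

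In the pentose phosphate pathway the lactonase of the oxidative branch and both carbon transfer enzymes fell, and the isomerase that makes ribose 5-phosphate rose. *PGLS* measured 1.72, 2.93, 3.12 and 4.04 CPM in the GV libraries, 0.179, 0, 0.175, 0.0502 and 0.0706 CPM in MII and 0.0721, 0.216, 0.0575, 0.121 and 0.305 CPM in ‘damaged’ libraries. *PGLS*, the lactonase, had 0 to 4.52 estimated counts in a MIX library and 33.7 to 97.4 in a GV library, and *PGLS* fell by 4.45 on the log2 scale (SE 0.396, FDR 2.07e-09). Chromosome 2 from base 60186690 to 60198037 (RefSeq, Sscrofa11.1) holds *PGLS*. *TALDO1*, the transaldolase, fell by 2.66 on the log2 scale (SE 0.174, FDR 1.78e-11), from 25.2 to 34.3 CPM in GV to 2.67 to 6.63 in MIX. *TKT* measured 51.2, 71, 68.6 and 96.4 CPM in the GV libraries and 8.26, 9.65, 9.68, 8.22 and 9.69 CPM in MII, and in the 5 ‘damaged’ libraries between 6.78 and 15.8 CPM. The transketolase *TKT* thus had no overlap between GV and MIX libraries, at a log2 fold change of -2.95 (SE 0.181, FDR 7.48e-12).

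*RPIA* measured 133, 153, 141 and 162 CPM in the GV libraries, 241, 273, 305, 262 and 354 CPM in MII and 278, 265, 374, 329 and 386 CPM in ‘damaged’ libraries. *RPIA*, ribose 5-phosphate isomerase, was the most abundant member of the pathway in all 3 groups and rose by 1.04 on the log2 scale (SE 0.129, FDR 2.71e-07). On library sizes its change was 0.15 (FDR 0.359), so the rise is one relative to other genes. Chromosome 3 from base 57355973 to 57386948 (RefSeq, Sscrofa11.1) holds *RPIA*. Within a library, where no scaling between libraries enters, *RPIA* stood at 2.24 to 3.46 times *TKT* per kb in GV and at 32.5 to 72.7 times in MIX. *PGD*, the dehydrogenase that makes NADPH, overlapped between the groups (log2 fold change 0.58, SE 0.212, FDR 0.0177), and on library sizes was at -0.30. It passed by DESeq2 (0.63, FDR 0.00662) and without GV replicate 5 (0.78, FDR 0.00361) or MII replicate 1 (0.65, FDR 0.0079).

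The 5 components of the pyruvate dehydrogenase complex did not move together. *PDHA1* measured 111, 118, 94.5 and 109 CPM in the GV libraries, 59.3, 68, 59.9, 54.9 and 57.9 CPM in MII and 50.4, 53.4, 54, 62.4 and 68.8 CPM in ‘damaged’ libraries. *PDHA1*, the catalytic alpha subunit of the E1 enzyme, was lower in every MIX library and *PDHA1* fell by 0.88 on the log2 scale (SE 0.108, FDR 2.37e-07). *PDHB* measured 25.6, 19.6, 20.8 and 14.5 CPM in the GV libraries, 18.6, 15.6, 18.2, 17.4 and 20.7 CPM in MII and 20.3, 17.7, 26.6, 17.5 and 13.5 CPM in ‘damaged’ libraries. *PDHB*, its partner subunit, overlapped between all groups (log2 fold change -0.10, SE 0.162, FDR 0.596). *PDHX* measured 138, 136, 146 and 126 CPM in the GV libraries, 275, 316, 376, 360 and 336 CPM in MII and 263, 333, 414, 311 and 295 CPM in ‘damaged’ libraries. *PDHX*, the protein that binds E3 to the core, was the most abundant of the 5 per kb in every library and rose by 1.26 on the log2 scale (SE 0.117, FDR 4.42e-09).

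*DLAT* measured 21.1, 31, 26.9 and 30.5 CPM in the GV libraries, 64.7, 77, 56.7, 62.1 and 52.3 CPM in MII and 44.6, 57.2, 45.3, 81.5 and 64 CPM in ‘damaged’ libraries. *DLAT*, the acetyltransferase that forms the core, rose by 1.13 on the log2 scale (SE 0.161, FDR 1.98e-06), with the lowest MIX library above the highest GV library. *DLD* measured 35, 24.8, 35.8 and 19 CPM in the GV libraries, 102, 107, 90.3, 128 and 93.8 CPM in MII and 138, 119, 130, 84.5 and 64.6 CPM in ‘damaged’ libraries. *DLD*, the E3 dehydrogenase that the complex shares with others, rose by 1.90 on the log2 scale (SE 0.196, FDR 1.94e-08), the largest rise of the 5, and its ‘damaged’ values spread more than its MII values. On library sizes *DLD* (1.01, FDR 2.8e-05) and *PDHX* (0.37, FDR 0.00863) still passed, and *DLAT* (0.25, FDR 0.213) did not. As a ratio within each library per kb, *DLD* to *PDHA1* was 0.181 to 0.396 in GV and 0.982 to 2.86 in MIX, and *DLAT* to *PDHA1* was 0.278 to 0.416 in GV and 1.23 to 1.91 in MIX.

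Pyruvate dehydrogenase kinases, which phosphorylate and silence *PDHA1*'s product, were led by *PDK3* in MIX oocytes. *PDK3* measured 18.7, 13.1, 17.9 and 12.8 CPM in the GV libraries, 71, 100, 59.4, 89.9 and 90.2 CPM in MII and 72.1, 85.3, 108, 69.6 and 69.4 CPM in ‘damaged’ libraries. *PDK3* was higher in each MIX library and rose by 2.39 on the log2 scale (SE 0.169, FDR 6.39e-11), or by 1.49 (FDR 3.32e-08) on library sizes. Chromosome X from base 20486205 to 20598492 (RefSeq, Sscrofa11.1) holds *PDK3*. *PDK2* measured 1.88, 1.92, 2.01 and 3.7 CPM in the GV libraries, 0.374, 0.45, 0.229, 0.472 and 0.368 CPM in MII and 0.526, 0.0751, 0.36, 1.08 and 0.795 CPM in ‘damaged’ libraries. *PDK2* was scarce, and *PDK2* fell by 2.39 on the log2 scale (SE 0.347, FDR 2.52e-06). *PDK1* did not pass (0.24, SE 0.125, FDR 0.0863), and *PDK4*, under 5 CPM in every library, did not either (1.24, SE 0.763, FDR 0.146), although it passed by DESeq2 (1.80, FDR 0.00304) and without ‘damaged’ replicate 3 (1.69, FDR 0.00497). Per kb, *PDK3* stood at 0.78 to 1.22 times *PDK1* in GV and at 2.89 to 5.78 times in MIX. *PDP1* measured 12.4, 11.7, 10.8 and 10.3 CPM in the GV libraries, 4.1, 4.53, 1.89, 2.4 and 2.69 CPM in MII and 3.79, 2.04, 2.91, 3.18 and 4.47 CPM in ‘damaged’ libraries. The phosphatase *PDP1*, which reverses the kinases, was lower in each MIX library, at a log2 fold change of -1.87 (SE 0.189, FDR 1.5e-08).

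In the cycle itself 5 of 12 enzyme genes fell, 4 rose and 3 did not pass. These shares, 41.7% lower and 33.3% higher, were near the 37.2% and 30.3% of all genes tested. Subunits of the same enzyme were found on both sides. *CS* measured 183, 156, 153 and 151 CPM in the GV libraries, 299, 313, 297, 297 and 315 CPM in MII and 335, 277, 424, 342 and 390 CPM in ‘damaged’ libraries. Citrate synthase, the entry step, was higher in each MIX library and rose by 1.03 on the log2 scale (SE 0.116, FDR 7.96e-08). This call rests on length scaling: with counts summed over transcripts the change was -0.18 (FDR 0.113), and on library sizes it was 0.13 (FDR 0.308). The use of its 2 isoforms, of 6201 and 1428 bases, is described below.

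NAD-dependent isocitrate dehydrogenase is built from alpha, beta and gamma subunits, of which the alpha subunit holds the catalytic site. *IDH3A* measured 86.4, 54.6, 62.1 and 46.4 CPM in the GV libraries, 116, 150, 160, 142 and 131 CPM in MII and 102, 136, 161, 132 and 113 CPM in ‘damaged’ libraries. *IDH3A* rose by 1.13 on the log2 scale (SE 0.151, FDR 7.63e-07), with no overlap, although on library sizes the change was 0.24 (FDR 0.108). *IDH3G* measured 23.1, 22.5, 22.9 and 32.9 CPM in the GV libraries, 0.421, 0.885, 1.39, 0.604 and 1.59 CPM in MII and 0.701, 0.938, 0.75, 1.22 and 0.891 CPM in ‘damaged’ libraries. The gamma subunit gene had by contrast all GV values far above its MIX values, and *IDH3G* fell by 4.77 on the log2 scale (SE 0.221, FDR 1.41e-13), the largest fall of the 48 members tested. Chromosome X from base 124528643 to 124537570 (RefSeq, Sscrofa11.1) holds *IDH3G*. *IDH3B* fell by 4.22 on the log2 scale (SE 0.212, FDR 3.99e-13), from 26.8 to 41 CPM in GV to 0.823 to 2.48 CPM in MIX. Per kb and within a library, *IDH3A* was at 1.04 to 1.31 times *IDH3B* in GV, 31 to 51.8 times in MII and 33.1 to 87.3 times in ‘damaged’ oocytes. For *IDH3A* to *IDH3G* the ratio was 0.889 to 2.36 in GV and 51.8 to 173 in MIX. *IDH3A* was thus near parity with the other subunits only in GV oocytes.

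*SUCLG2* measured 67.1, 45.3, 50.9 and 37.5 CPM in the GV libraries, 257, 281, 171, 244 and 258 CPM in MII and 241, 228, 225, 234 and 240 CPM in ‘damaged’ libraries. *SUCLG2*, the GTP-specific beta subunit of succinyl-CoA ligase, rose by 2.27 on the log2 scale (SE 0.141, FDR 8.98e-12), and kept 1.37 (FDR 2.25e-09) on library sizes. Chromosome 13 from base 48650851 to 49090521 (RefSeq, Sscrofa11.1) holds *SUCLG2*. *SUCLG1*, the alpha subunit it pairs with, fell by 2.07 on the log2 scale (SE 0.161, FDR 2.52e-10), from 39.8 to 64.7 CPM in GV to 8.77 to 18.1 CPM in MIX. The ATP-specific beta subunit *SUCLA2* did not pass (-0.51, SE 0.247, FDR 0.0697). It was called lower with the replicate number as a block (-0.75, FDR 0.000482), without ‘damaged’ replicate 3 (-0.63, FDR 0.00905), with a stricter filter on low values, of 10 CPM, (-0.83, FDR 0.00435) and on library sizes (-1.40, FDR 2.3e-05). The *SUCLG2* to *SUCLG1* ratio per kb was 0.467 to 0.534 in the GV libraries, 6.63 to 11.9 in MII and 9.29 to 13.2 in ‘damaged’ libraries.

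**Figure D3:**
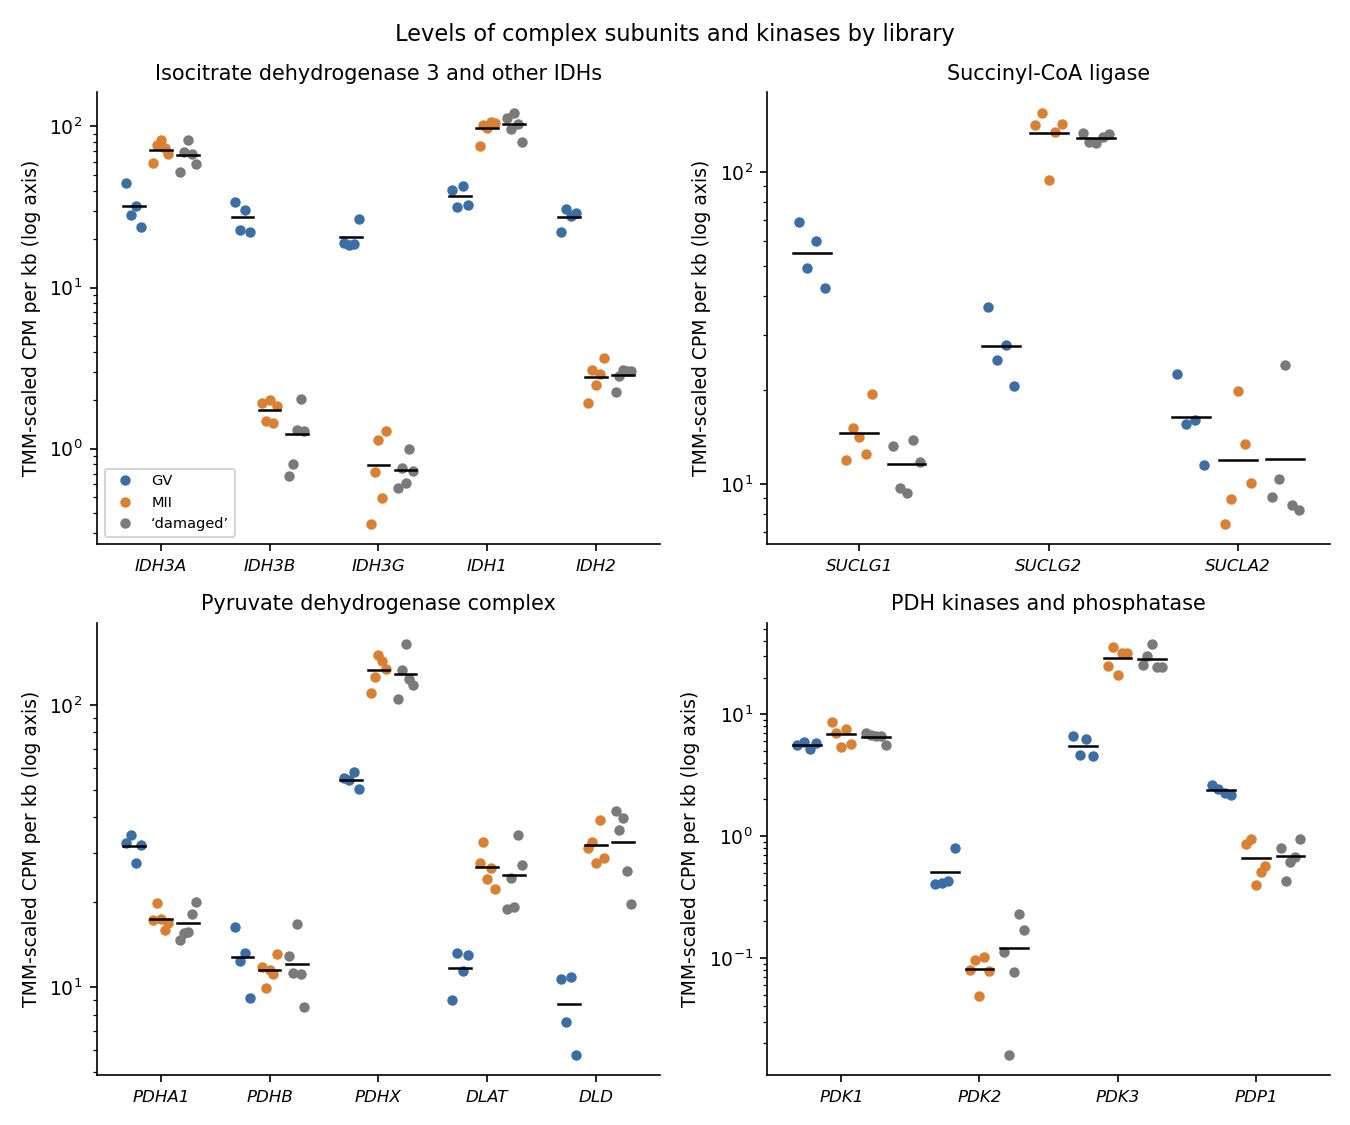
Levels (TMM-scaled CPM per kb, log axis) of isocitrate dehydrogenases, succinyl-CoA ligase, the pyruvate dehydrogenase complex and its kinases and phosphatase in each GV, MII and ‘damaged’ library. Points are libraries (4 GV, 5 MII, 5 ‘damaged’) and black lines group means. *IDH3A* rises while *IDH3B* and *IDH3G* fall, *SUCLG2* and *SUCLG1* change places, and MII and ‘damaged’ points overlap for each gene.

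*IDH2* measured 49, 67.7, 61.1 and 64 CPM in the GV libraries, 4.25, 6.82, 5.45, 6.39 and 8.02 CPM in MII and 4.94, 6.27, 6.78, 6.66 and 6.72 CPM in ‘damaged’ libraries. *IDH2*, the mitochondrial NADP-dependent isocitrate dehydrogenase, fell by 3.27 on the log2 scale (SE 0.14, FDR 5e-14). *OGDH* measured 2.13, 3.34, 2.59 and 5.9 CPM in the GV libraries, 1.18, 1.35, 1.01, 0.632 and 0.498 CPM in MII and 0.371, 0.445, 0.871, 0.909 and 0.905 CPM in ‘damaged’ libraries. *OGDH*, the E1 enzyme of the 2-oxoglutarate dehydrogenase complex, was low in each group, and *OGDH* fell by 2.07 on the log2 scale (SE 0.303, FDR 2.93e-06). *DLST* measured 19.1, 31.1, 23.4 and 39 CPM in the GV libraries, 41.2, 51.5, 59.7, 38.4 and 29.6 CPM in MII and 28.5, 45.4, 56.7, 42 and 46.2 CPM in ‘damaged’ libraries. *DLST*, the core enzyme of that complex, overlapped between GV and MIX and rose by 0.65 on the log2 scale (SE 0.199, FDR 0.00584), a rise that failed the FDR of 0.01 without GV replicate 1 (0.50, FDR 0.0323), GV replicate 4 (0.58, FDR 0.0265) or MII replicate 2 (0.62, FDR 0.0103) and was -0.23 on library sizes. The rise of *DLST* also failed with summed counts (0.23, FDR 0.271), the filter of 10 CPM (0.33, FDR 0.142), all 5 GV libraries (0.50, FDR 0.0321) and the 8 agreeing libraries (0.57, FDR 0.0666). The ratio of *DLST* to *OGDH* per kb was 12 to 16.9 in GV and 63 to 184 in MIX.

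*MDH2* measured 30.6, 45.1, 53.5 and 41.3 CPM in the GV libraries, 44.8, 46.9, 41.6, 37.6 and 113 CPM in MII and 52.4, 33.8, 54.5, 47.8 and 71.5 CPM in ‘damaged’ libraries. The mitochondrial malate dehydrogenase *MDH2* overlapped between all groups, with 1 MII library far above the rest, and did not pass (0.29, SE 0.229, FDR 0.247). Fumarase, *FH*, had the change closest to 0 of the 48 members, with 38.9 ± 2.31 CPM in GV (SD, n = 4), 38.9 ± 4.42 in MII and 38.8 ± 2.45 in ‘damaged’ oocytes (SD, n = 5 each), and a 95% interval of -0.22 to 0.22 for its log2 fold change. On library sizes (-0.89, FDR 2.42e-07) and with the filter of 10 CPM (-0.32, FDR 0.00667) *FH* was called lower.

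*ME2* measured 715, 512, 619 and 511 CPM in the GV libraries, 2012, 2015, 1918, 1849 and 1869 CPM in MII and 1926, 1655, 1985, 1667 and 1530 CPM in ‘damaged’ libraries. Mitochondrial malic enzyme, which makes pyruvate from malate, was the most abundant member of all in each of the 14 libraries per kb. It rose by 1.65 on the log2 scale (SE 0.11, FDR 2.3e-11), by 0.76 (FDR 5.18e-08) on library sizes. Chromosome 1 from base 100419404 to 100475778 (RefSeq, Sscrofa11.1) holds *ME2*. Pyruvate carboxylase, *PC*, had 4.2 to 7.21 estimated counts in the GV libraries and at most 1.01 in any MIX library, below the filter.

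Among the cytosolic enzymes *IDH1* rose, *MDH1* and *ACLY* fell, and *ACO1* and *ME1* did not pass. *IDH1* measured 83.6, 64.8, 87.9 and 67.2 CPM in the GV libraries, 157, 210, 203, 222 and 216 CPM in MII and 233, 200, 253, 212 and 165 CPM in ‘damaged’ libraries. The cytosolic NADP-dependent isocitrate dehydrogenase rose by 1.45 on the log2 scale (SE 0.13, FDR 2.36e-09), opposite to its mitochondrial counterpart, and the *IDH1* to *IDH2* ratio per kb was 1.02 to 1.82 in GV and 26.2 to 50.3 in MIX. *MDH1* measured 210, 113, 154 and 97.5 CPM in the GV libraries, 27, 23, 27, 27.5 and 14.1 CPM in MII and 15.8, 27.2, 13.8, 28.2 and 23 CPM in ‘damaged’ libraries. Cytosolic malate dehydrogenase fell by 2.65 on the log2 scale (SE 0.208, FDR 2.96e-10). Per kb its ratio to *MDH2* was 2.82 to 8.2 in GV and 0.15 to 0.958 in MIX. The order of the malate dehydrogenases was thus the reverse in every MIX library. *ME1* measured 48.5, 49.7, 46.7 and 45.7 CPM in the GV libraries, 55, 58.8, 31.2, 52 and 56.4 CPM in MII and 59.6, 51.4, 41.5, 49.9 and 58.9 CPM in ‘damaged’ libraries. *ME1* overlapped, with a log2 fold change of 0.09 (SE 0.144, FDR 0.586), and *ACLY*, which splits citrate for lipid synthesis, fell by 0.88 on the log2 scale (SE 0.146, FDR 1.47e-05).

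The 22 members that fell had a median transcript length of 1947 bases and the 13 that rose one of 2383 bases. Over all genes tested the medians were 2665 bases for those that fell and 2992 bases for those that rose, so the members were shorter in both classes.

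MII and ‘damaged’ oocytes were also set against the same 4 GV libraries one at a time. In MII, 21 members were lower and 12 higher at an FDR under 0.01 (34.2% and 28.2% of all genes), and in ‘damaged’ oocytes 22 were lower and 11 higher (33.4% and 28% of all genes). *LDHB* passed only in MII (2.59 against 2.13) and *GAPDH* only in ‘damaged’ oocytes (-0.49 against -0.74, MII given first), and the difference itself was not called for either. No member passed in opposite directions. The median log2 change of glycolysis was -0.76 in MII and -1.27 in ‘damaged’ oocytes, that of the pentose phosphate pathway -2.69 and -2.63, and that of the TCA group 0.16 and 0.17. The glycolysis medians fell on different genes. In MII it was *GPI* (-0.76, and -0.86 in ‘damaged’ oocytes), and in ‘damaged’ oocytes *SLC2A1* (-1.27, and -1.85 in MII).

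Between ‘damaged’ and MII oocytes limma called 0 of the 48 members at an FDR under 0.01, as 0% of all 13224 genes. The smallest FDR over all genes was 0.999996. The edgeR and DESeq2 tests called 0 members as well. No member reached an unadjusted p under 0.05 (smallest 0.0605), while 194 of all genes did. The median absolute log2 difference of the members was 0.11, and the 95% interval reached to 0.45 on either side of the estimate in the median. For 39 members that interval lay within -1 and 1, and for 22 within -0.5 and 0.5. It reached past 1 in either direction for *SLC2A1*, *ALDOA*, *ENO1*, *LDHB*, *PGLS*, *PDK2*, *PDK4*, *IDH3B* and *OGDH*, so for these 9 a 2-fold difference may have escaped detection at this depth and number of libraries. In 7 of 15 columns the gene table and the transcript files name different libraries, so which label is right for MII against ‘damaged’ libraries was not tested. The 8 agreeing libraries gave 0 calls too.

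**Figure D4:**
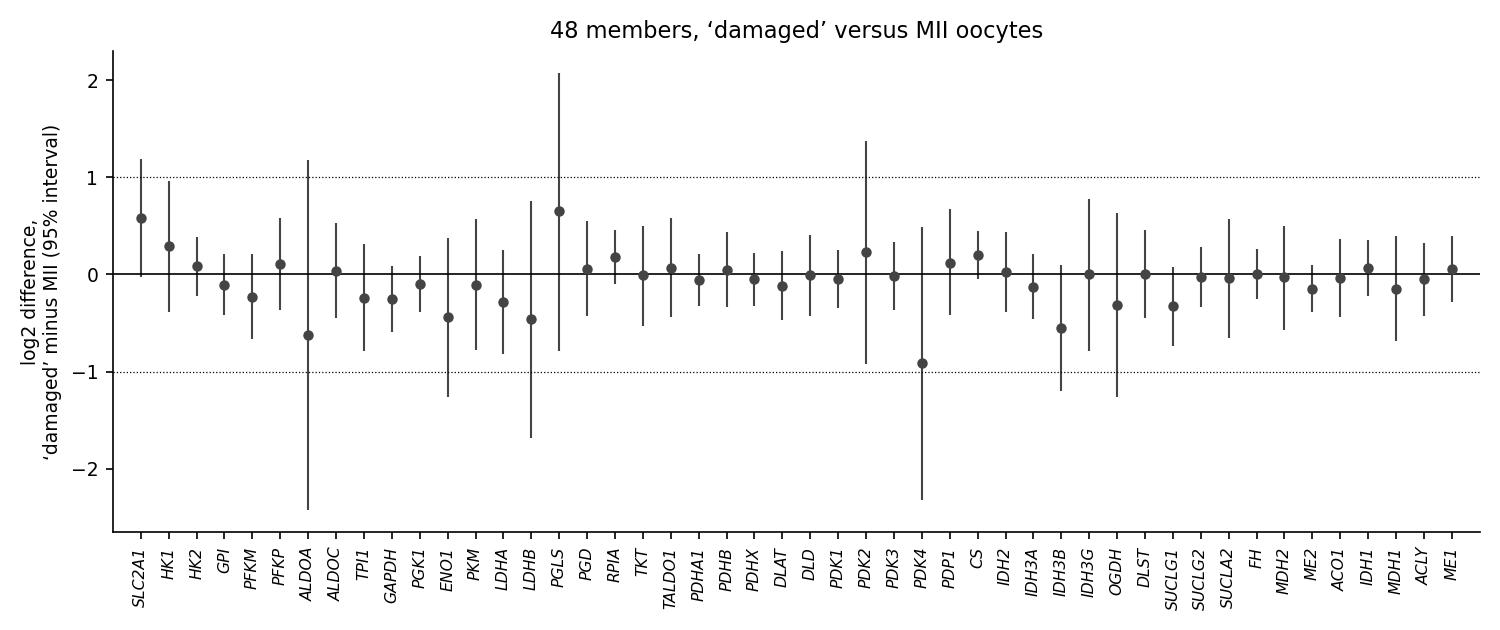
Log2 difference between ‘damaged’ (5 libraries) and MII oocytes (5 libraries) for the 48 tested members, with 95% intervals from limma. Dotted lines mark -1 and 1. Every interval crosses 0, and 39 of 48 stay between the dotted lines.

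Other genes of the same pathways, 82 in all with 57 tested, were counted in 4 lists. Of the 57, 42.1% were lower and 28.1% higher in MIX at an FDR under 0.01. This was near the 37.2% and 30.3% of all genes tested. Of 13 other glycolysis genes tested 6 fell and 1 rose. The testis type lactate dehydrogenase *LDHC*, at 219 ± 69.6 CPM in GV (SD, n = 4), fell 3.8-fold (FDR 9.86e-07). *PGAM2*, a phosphoglycerate mutase, had 1.3 to 3 CPM in GV libraries and 0 counts in all 10 MIX libraries, and so was at least 7.42-fold lower, with 3 counts per library as the limit. *G6PC3*, a glucose 6-phosphatase, fell by 3.26 (SE 0.503, FDR 5.97e-06), and *PGM2*, a phosphoglucomutase, rose by 1.25 (SE 0.137, FDR 5.05e-08). The other positive values were those of *ENO4* at 1.16 (FDR 0.0357) and *PFKFB2* at 0.50 (FDR 0.204), which did not pass.

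Transport genes split 4 to 4 among 10 tested. The mitochondrial channels *VDAC1* (1.61, FDR 4.59e-10) and *VDAC3* (-1.60, FDR 3.66e-08) went opposite ways. *MPC2*, of the mitochondrial pyruvate carrier, rose by 1.56 (FDR 8.33e-09), and the glucose transporter *SLC2A8* fell by 1.55 (FDR 1.72e-07). Of 6 other pentose phosphate genes tested 3 fell, led by *H6PD* (-1.48, FDR 7.18e-06) and *PRPS1* (-0.77, FDR 3.23e-05), and 2 rose, *PRPS2* (0.99, FDR 7.14e-05) and *PRPSAP2* (0.97, FDR 1.51e-05).

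Of 28 other TCA and pyruvate genes tested, 11 fell and 9 rose. The largest falls were those of the mitochondrial carriers *SLC25A10* for dicarboxylates (-5.60, FDR 1.73e-10) and *SLC25A1* for citrate (-5.25, FDR 1.46e-09). The succinate dehydrogenase subunit *SDHC* rose by 1.87 (FDR 1.58e-07). *SDHB* also rose, by 1.00 (FDR 3.58e-07), whereas the flavoprotein *SDHA* of the same complex fell by 1.10 (FDR 3.46e-06). *SDHA*, *SDHB* and *LDHC* were picked after their values were seen.

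Isoform use was tested for 83 isoforms of 28 members. At an FDR under 0.01 and a difference in isoform fraction over 0.1, 44 isoforms of 24 members differed between MIX and GV, 22 gaining and 22 losing. That is 53% of the member isoforms, beside 43.2% of all 11671 isoforms tested. The libraries of the 2 groups did not overlap for 28 of the 44, which had been selected for a difference between these groups. In 17 members isoforms were called in both directions, and the one that gained most was shorter than the one that lost most in 11 and longer in 6. For neither count was the share over all isoforms or genes taken, so neither is particular to the members. The fractions are shares of a gene's TPM as Kallisto splits single 75 b reads among annotated transcripts, and its error in that split is not in the test.

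Citrate synthase was among the clearest. Its 1428 b isoform held 27.7% of the TPM in GV (15.4% to 46.7% by library) and 85.3% in MIX oocytes (79.5% to 87.8%, FDR 1.28e-21), and the 6201 b isoform took the rest. In *PFKP* the 2780 b isoform held 44.7% of the TPM in GV (34.4% to 62.1% by library) and 0% in MIX oocytes (0% to 0%, FDR 3.78e-37), and the 2654 b isoform held 1.6% of the TPM in GV (0% to 3.61% by library) and 61% in MIX oocytes (45.5% to 82.3%, FDR 6.71e-17). Neither gene had any overlap between GV and the other libraries in these shares.

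Succinyl-CoA ligase gave a similar picture at lower shares. The 1215 b isoform of *SUCLG2* held 10.2% of the TPM in GV (6.89% to 14.1% by library) and 40.5% in MIX oocytes (31.1% to 49.6%, FDR 1.23e-17). In *IDH2* the 1374 b isoform held 50% of the TPM in GV (47.2% to 51.7% by library) and 1.27% in MIX oocytes (0% to 11.8%, FDR 4.82e-09). The 2610 b isoform was thus nearly alone in MIX oocytes. The only isoform called for *IDH3G*, of 1267 b, held 67.8% of the TPM in GV (54.8% to 76.2% by library) and 0% in MIX oocytes (0% to 0%, FDR 5.7e-20). Each of these shares was without overlap. *IDH3G* had only 4.45 to 25.5 estimated counts in a MIX library, however, and its uncalled isoforms of 1348 b and 1480 b ranged from 0% to 100% there.

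In the pyruvate dehydrogenase complex isoforms were called for all 5 genes. The 2836 b isoform of *PDHX* held 56.2% of the TPM in GV (47.4% to 70.1% by library) and 98.6% in MIX oocytes (91% to 100%, FDR 0.000137). For *DLAT* the 2081 b isoform held 0.453% of the TPM in GV (0% to 2.95% by library) and 40% in MIX oocytes (24.1% to 46.3%, FDR 5.55e-18). *PDHA1* exchanged isoforms of nearly equal length, and that of 3745 b held 10.6% of the TPM in GV (0.44% to 19% by library) and 56% in MIX oocytes (45.6% to 66.9%, FDR 6.73e-07). These 3 genes had no overlap. The 1437 b isoform of *PDHB* held 52.8% of the TPM in GV (46.2% to 65.7% by library) and 76.6% in MIX oocytes (68.4% to 82.7%, FDR 1.73e-08), in a gene whose level did not pass the test. The 2604 b isoform of *DLD* held 37.8% of the TPM in GV (0.000134% to 81.7% by library) and 92.6% in MIX oocytes (80.5% to 97.1%, FDR 0.000639), overlapping between the groups because the GV libraries themselves were spread.

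Among the rest, the 8272 b isoform of *PDK3* held 20.5% of the TPM in GV (11.3% to 28% by library) and 2.31% in MIX oocytes (1.43% to 3.93%, FDR 8.61e-17), and the 2161 b isoform of *TKT* held 31.7% of the TPM in GV (16.5% to 41.1% by library) and 82.1% in MIX oocytes (44% to 94.1%, FDR 8.38e-05). The 1497 b isoform of *MDH1* held 74.9% of the TPM in GV (66.6% to 80.4% by library) and 94.3% in MIX oocytes (89.5% to 95.5%, FDR 1.85e-09). These 3 were also without overlap. The calls in *ALDOA*, *OGDH* and *PDP1*, like that in *IDH3G*, came from genes with few counts. In *ALDOA*, *OGDH* and *PDP1* the called shares ranged widely in MIX libraries (0% to 100% for the *OGDH* isoform of 3964 b). The groups overlapped there. One or more further isoforms were called for *DLST*, *ENO1*, *IDH1*, *IDH3A*, *MDH2*, *ME1*, *ME2* and *PGK1*.

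**Figure D5:**
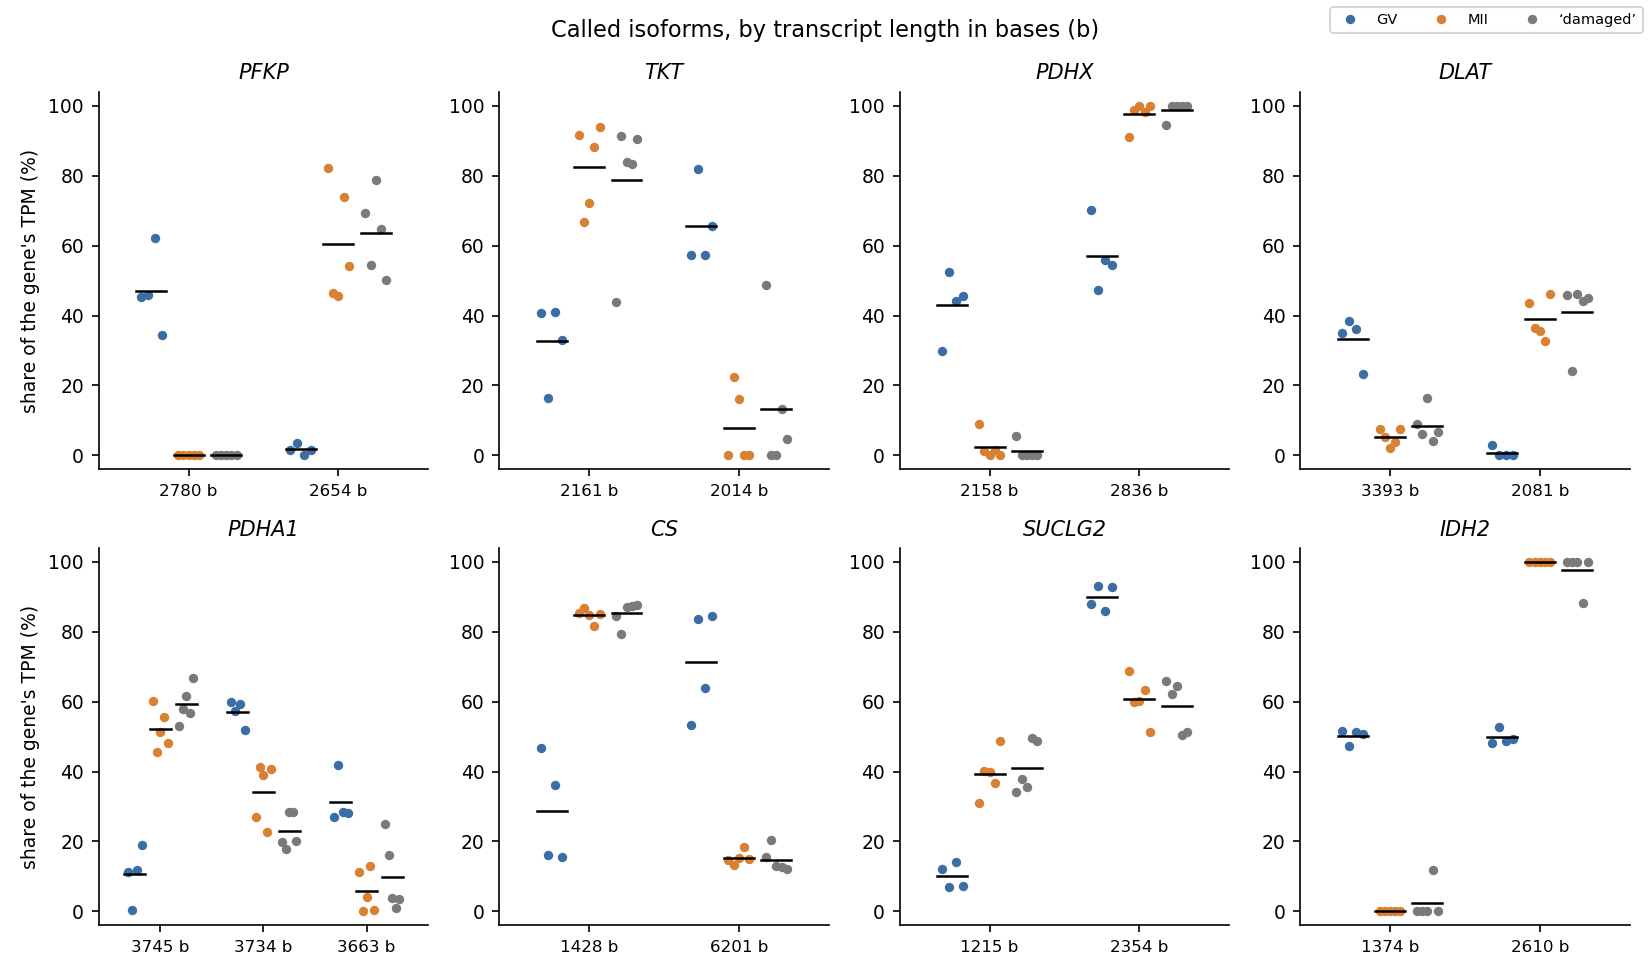
Share of each gene's TPM (%) held by called isoforms of 8 members in GV (4), MII (5) and ‘damaged’ libraries (5), with the isoforms named by their length in bases. Points are libraries and black lines means over libraries. In each panel the GV points are apart from the others, and the MII and ‘damaged’ points overlap.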

How the data were processed

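RNA of 15 pig oocyte libraries was analysed, and human libraries were not used here. Per the study's methods and the labels, the authors made the deposited estimated counts and TPM per transcript with Kallisto 0.43 on Sscrofa11.1, and the estimated counts per gene with tximport (lengthScaledTPM), unfiltered. Of the 15 columns of the deposited gene table, 8 had the total of the transcript file they name and were used, and 7 had that of another library and were not used. Transcripts were assigned to genes by their fit to these 8 columns, and gene counts of all libraries were rebuilt for 17873 of 22516 genes, holding 99.9361 to 99.9965% of the counts. Estimated counts were not rounded for limma. The largest deviation from deposited gene counts of 10 or more was 2.5%. Symbols came from the gene name table and positions from RefSeq.

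Genes that passed filterByExpr of edgeR 4.0.16 by the 3 groups were compared on 14 libraries by voom with TMM factors and moderated linear models of limma 3.58.1 (R 4.3.3), and the FDR was adjusted over all 13224 genes. MIX against GV was fitted with 2 groups, the other contrasts with 3. Isoform use was tested with the DEXSeq model in DESeq2 1.42.0 (gene TPM over 1, isoform fraction over 0.05, absolute difference over 0.1). That last filter uses the values it then tests. Figures and summaries used Python 3.11.15. On simulated counts of known answers each script recovered nearly all changes. The libraries of a group differed by more than sampling noise (chi-square per gene of 15.2 or more), and limits of 3 counts and 95% intervals cover counting error or spread between libraries only.

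Members and lists were chosen with earlier results of these data known. Values per library are given for the most abundant member and the largest rise and fall of each of 10 role lists and for members with a called isoform, and of other pathway genes the 2 largest rises and falls of each list are named, except for items not reported here. The labels do not say which collection a library came from, so p-values measure the spread between these libraries. Alternatives were other scalings, filters, tools, counts, weights, a replicate block, all 5 GV libraries, leaving out each library, and, added after seeing the data, the 8 libraries whose names agree.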

Additional observations from a re-analysis of the deposited data

Results flagged for a closer look

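Within a group of 4 or 5 libraries, 1 library stood far from the others for 7 of the 102 combinations of named member and group that were examined, and chance alone flags about 5% of them. GV replicate 5 was the highest for *PDK2*, at 3.7 CPM beside 1.88 to 2.01 in the other GV libraries, and for *IDH3G*, at 32.9 beside 22.5 to 23.1 CPM. GV replicate 1 was the highest for *CS*, at 183 CPM beside 151 to 156. MII replicate 1 had the lowest *IDH1*, at 157 CPM beside 203 to 222, and MII replicate 3 the lowest *ME1*, at 31.2 CPM beside 52 to 58.8. MII replicate 5 held 113 CPM of *MDH2*, beside 37.6 to 46.9. ‘Damaged’ replicate 1 had the lowest *IDH2*, at 4.94 CPM beside 6.27 to 6.78. All of these except those for *MDH2* and *ME1* lay in genes whose GV and MIX libraries did not overlap.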

How the results depend on the processing

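Under library sizes without TMM factors, members called lower went from 22 to 32 in MIX, and those called higher from 13 to 7 in MIX, from 12 to 6 in MII and from 11 to 6 in ‘damaged’ oocytes against GV, and DEGs that rose from 3 to 0. Values that turned negative there were *HK2* (-0.64), *PGD* (-0.30), *PDK1* (-0.65), *DLST* (-0.23), *MDH2* (-0.59), *ACO1* (-0.62) and *ME1* (-0.80). Among all DEGs, 20.3% were higher with TMM factors and 1.2% on library sizes, where 46 rose and 3784 fell instead of 565 and 2215. The filter of 10 CPM left 1 DEG higher, moved the median of all genes to -0.08 and turned *HK2* (-0.07), *PDK1* (-0.08), *MDH2* (-0.03), *ACO1* (-0.04) and *ME1* (-0.23), and all 5 GV libraries gave 5. *CS* turned to -0.18 with counts summed over transcripts. *PDHB* turned to 0.07 with all 5 GV libraries and 0.14 with the 8 agreeing libraries, and *FH*, near 0, to 0.04 by DESeq2, without a filter and with quality weights, 0.11 with all 5 GV libraries, and 0.03 with summed counts, a replicate block and the 8 agreeing libraries, but *FH* was called lower on library sizes (-0.89, FDR 2.42e-07) and with the filter of 10 CPM (-0.32, FDR 0.00667). The causes were not tested. Leaving out each library in turn gave 13 to 14 DEGs lower and 2 to 4 higher, 22 to 23 members lower and 11 to 14 higher in MIX at an FDR under 0.01, 21 to 22 and 11 to 13 in MII, 22 to 23 and 11 to 13 in ‘damaged’ oocytes, 0 between ‘damaged’ and MII, and 35 to 46 isoforms, with *FH* from -0.04 to 0.03 and *PDHB* from -0.25 to 0.05. The edgeR test moved no member call in MIX against GV, and DESeq2 also called *PGD* (0.63, FDR 0.00662) and *PDK4* (1.80, FDR 0.00304) higher. Same-numbered libraries correlated at -0.146 to 0.417 in deviation from their group means over 13 pairs. In 13 of 28 cases the best partner in another group, out of 4 or 5 candidates, had the same number. The collections are said to have given all groups, but the labels do not tie the numbers to them. Not every pair was above 0.1, so the fits without a block were kept, and a pairing was neither established nor excluded. With a replicate block, 23 members were lower and 13 higher in MIX, *SUCLA2* joining (-0.75, FDR 0.000482), 14 and 3 by the DEG cutoffs, 22 and 12 in MII, 23 and 12 in ‘damaged’ oocytes, and 0 between ‘damaged’ and MII. Without a filter *PC* and 2 further low members could be tested. Isoforms without the filter on the difference again numbered 44, and 46 with all 5 GV libraries. At depths of 12 M or more in the 14 libraries, 3 counts correspond to 0.125 to 0.283 CPM, which limits *PGLS*, *PDK2*, *PC* and *IDH3G* in MIX.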
